A study of Mus musculus with 4 samples.

Results

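The genes described here are those that write, erase and read DNA methylation: *Dnmt1*, *Dnmt3a*, *Dnmt3b*, *Tet1*, *Tet2*, *Tet3*, *Uhrf1*, *Tdg* and *Mbd2*. On a one-color oligonucleotide array, where a brighter spot means more of the mRNA it binds, they were found as every non-control probe whose RefSeq accession belongs to 1 of these 9 genes. The rule gave 19 probes of the 55681 on the array. No measured value entered the rule, although the 9 genes were chosen with earlier results of these data known. RNA came from the whole brain of C57BL/6J offspring at postnatal day 1. Their dams had received 25 µL of vehicle (Sham) or of a suspension of titanium dioxide nanoparticles at 100 µg per mouse (TiO2-H) into the trachea on gestational day 10.5, although the sample descriptions give day 14. By their labels, males and females of each exposure were kept apart. The 4 groups were Sham male and Sham female, with 5 dams, and TiO2-H male and TiO2-H female, with 6 dams. Each was 1 pool of RNA, 2 offspring per dam, on 1 array. A pool gives no spread between litters, and a single sex therefore carries no p-value. In whole-brain RNA, fewer cells of a type and less mRNA per cell cannot be told apart.

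DNA methylation places a methyl group on cytosine, mostly where a guanine follows (CG), and can silence the promoter it lies on. Dnmt3a and Dnmt3b set new methylation, while Dnmt1, brought to newly copied DNA by Uhrf1, copies existing methylation as cells divide. Tet enzymes oxidise methylcytosine, Tdg cuts out the most oxidised forms for repair, and Mbd2 binds methylated CG and brings in a repressor complex. Neural progenitors and young neurons use these enzymes while the brain forms.

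The processed signal of each array was divided by the 75th percentile of its non-control spots, which lay between 795 and 871, and this ratio is called the level. It compares 1 probe across arrays and does not compare probes or genes with each other. Between 56.2% and 61.2% of the spots were well above background and none was saturated. Both TiO2-H arrays were brighter than both Sham arrays, with 75th percentiles of 867 and 871 against 810 and 795. More of their spots were well above background (59.4% and 61.2% against 56.9% and 56.2%). The lowest level well above background was 0.0340 and 0.0268 on the TiO2-H arrays, against 0.0375 and 0.0399. Repeat spots of the same probe on the same array, where well above background, had a median SD of 0.06 to 0.07 on the log2 scale. Markers of neurons (7 of 7), progenitors and radial glia (6 of 6), astrocytes (4 of 4), the oligodendrocyte lineage (4 of 4) and microglia (4 of 4) were well above background on all arrays, as were some genes of tissues outside the brain: *Apoa2* of liver (level 6.28 to 6.87) and *Acta1* (0.705 to 0.797) and *Myh3* (0.117 to 0.171) of muscle. The liver genes *Alb* and *Ahsg* were at background throughout. *Alas2* of blood had both TiO2-H arrays below both Sham arrays (0.956 and 1.01 against 1.18 and 1.03). So did a dimmer *Apoa2* probe (0.209 and 0.192 against 0.247 and 0.231), while the brightest probes of *Apoa2*, *Acta1* and *Myh3* overlapped. *Ckm* of muscle was well above background on Sham female alone (0.0688), and *Hbb-y* of blood under the label TiO2-H female alone (0.0412). The sex-linked genes went against the labels of both TiO2-H arrays. The level of *Xist*, transcribed from the inactive X chromosome, was 0.347 in Sham female and 0.400 under the label TiO2-H male, the other arrays being at background. *Eif2s3y*, a Y-linked gene, was at 4.34 in Sham male, 0.527 in Sham female and 4.99 under the label TiO2-H female. It was at background under the label TiO2-H male. The Sham female array thus carried some signal of a Y-linked gene too. Below, each TiO2-H array is called by its label. Values within a sex label are also given with the Sham arrays exchanged for some probes only. All other differences between the sex labels rest on labels that the sex-linked genes went against. Both Sham arrays lay in one row of the slide and both TiO2-H arrays in the other, so exposure and row cannot be told apart.

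Of the 19 probes, 18 were well above background on all 4 arrays, and these differed little between exposures. The median of their absolute log2 fold change, TiO2-H over Sham, was 0.17 in the male and 0.07 in the female label. The same 18 probes had a median absolute log2 difference of 0.08 between the Sham arrays and of 0.08 between the TiO2-H arrays. The scanner software's own error of a log2 ratio ranged from 0.20 to 0.37, and 3 of the 18 male and 1 of the 18 female differences were larger than it. None of the 19 probes reached 1.5-fold on the arrays labelled male, where 4.08% of 33328 probes did, or on those labelled female, where 2.65% of 34067 did. At or below 0.67-fold there was 1 probe on each, the dim probe of *Uhrf1*, against 3.29% and 3.31% of all probes. Of all probes called on the arrays labelled male, 55.4% were higher with TiO2-H. This share was 66.8% without scaling, 45.0% after quantile normalization and 41.2% after normexp. On the arrays labelled female 44.5% of calls were higher, against 61.6% without scaling and 31.1% after normexp. Between the Sham arrays no member passed either threshold (3.17% and 3.15% of all probes did), and none of 18 did between the TiO2-H arrays (2.05% and 4.17%).

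**Figure D1:**
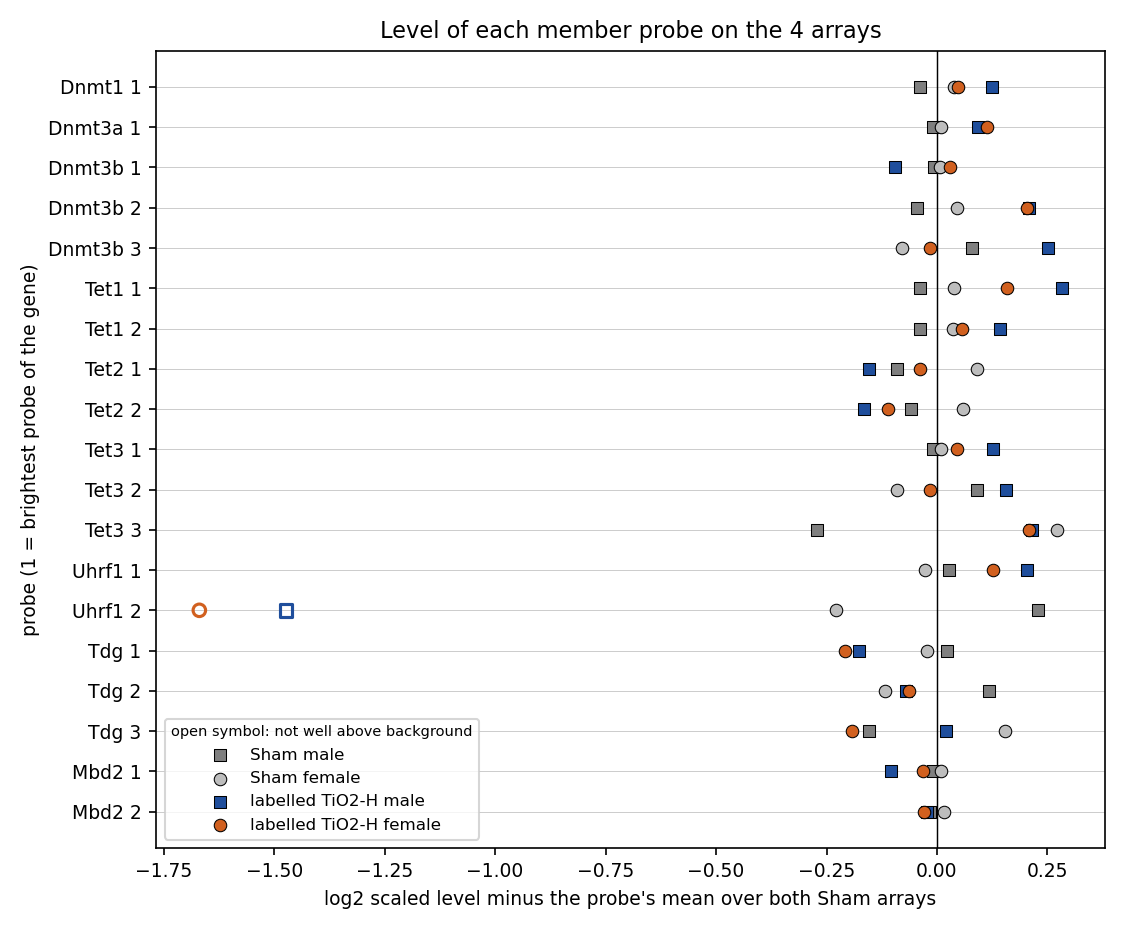
Level of each of the 19 probes on the 4 arrays as log2 scaled level minus the probe's mean over both Sham arrays (horizontal axis), 1 row per probe with probes numbered from the brightest of a gene. Squares are the arrays labelled male and circles those labelled female, and open symbols were not well above background. Only the dimmer *Uhrf1* probe has TiO2-H points far from its Sham points, at levels of 0.0314 and 0.0274.

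The maintenance pair is given first. *Dnmt1*, the enzyme that copies methylation, had levels of 1.14 (Sham male), 1.21 (Sham female), 1.28 (labelled TiO2-H male) and 1.22 (labelled TiO2-H female) with its single probe. Both TiO2-H levels were above both Sham levels, the nearest by less than the gap between the Sham arrays. The log2 fold change was 0.16 in the male and 0.01 in the female label.

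*Uhrf1*, which recognises half-methylated DNA and recruits Dnmt1, had a bright and a dim probe that went opposite ways. The bright probe, of accession NM_010931, had levels of 1.35, 1.30, 1.53 and 1.45 in the same order of arrays. The TiO2-H arrays were above the Sham arrays, by 1.13-fold in the male and 1.11-fold in the female label (log2 0.18 and 0.16). The dim probe, of accession NM_001111079, read 0.102, 0.0743, 0.0314 and 0.0274. It was well above background on both Sham arrays and on neither TiO2-H array, where its signals of 27.2 and 23.8 lay beside a lowest well-above-background signal of 29.5 and 23.3. Set against its limit, it was at least 3.0-fold lower in the male label. In the female label its own dim signal was higher than the limit and was used, and it read 2.71-fold lower. It entered the comparison only through the arrays where it was bright. The Sham arrays themselves differed by 0.46 on the log2 scale for this probe. Its log2 values became -1.13 and -1.90 with the Sham arrays exchanged, and -1.04 and -0.71 with normexp background correction. Where both arrays had to be well above background, the probe was not compared and no member passed a threshold.

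RefSeq lists more than 1 start for *Uhrf1*, and the accessions of its probes were not tied to a start here. The 250 bases before each listed start are shown (GRCm38.p6, plus strand, 5′ to 3′), with CG, the letters these enzymes act on, in capitals. They lie at chr17:56303087-56303336 and chr17:56304063-56304312.
Uhrf1, first start: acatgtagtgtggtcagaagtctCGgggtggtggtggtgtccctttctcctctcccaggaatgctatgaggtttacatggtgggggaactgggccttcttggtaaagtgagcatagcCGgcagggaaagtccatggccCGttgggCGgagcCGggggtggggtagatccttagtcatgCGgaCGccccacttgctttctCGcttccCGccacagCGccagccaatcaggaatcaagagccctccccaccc
Uhrf1, second start: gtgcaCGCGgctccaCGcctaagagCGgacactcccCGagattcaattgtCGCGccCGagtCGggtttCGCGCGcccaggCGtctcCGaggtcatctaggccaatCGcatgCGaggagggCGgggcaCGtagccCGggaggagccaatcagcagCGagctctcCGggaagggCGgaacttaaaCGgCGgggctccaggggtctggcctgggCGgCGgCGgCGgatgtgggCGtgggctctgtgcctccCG
The first window held 10 CG and the second 30, and 37.8% and 5.94% of 32851 mouse promoter windows of this length held as many. The median over all windows was 6, with quartiles of 2 and 16. Methylation of these windows was not analysed here.

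Dividing cells use Dnmt1 and Uhrf1 most, so their markers are given beside them. Of the 10 dividing-cell markers, 9 were measured and *Aurkb* was at background throughout. With the brightest probe, 5 of the 9 had both TiO2-H arrays above both Sham arrays and 1 had both below. Of the 35625 probes well above background on at least 1 array, 26.3% were above and 26.9% below. Among the dimmer probes of these genes, that of *Mki67* was above, those of *Ccnb1* were below and those of *Birc5* overlapped. The median log2 fold change was 0.03 in the male and 0.07 in the female label, with ranges of -0.25 to 0.34 and -0.29 to 0.39. Their summed level was 17.3, 16.1, 17.99 and 17.3 on the 4 arrays, and the part of dividing cells in the *Dnmt1* and *Uhrf1* values was not tested.

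Among the enzymes that set new methylation, *Dnmt3a* had the same small difference in both labels. Its single probe read 10.002 and 10.14 on the Sham arrays and 10.74 and 10.89 on the TiO2-H arrays, a log2 fold change of 0.10 in each label. The TiO2-H arrays were both above the Sham arrays. *Dnmt3b* had 3 probes of the same accession, NM_001003961, that did not move alike. Its brightest probe read 0.373, 0.377, 0.351 and 0.383, with the array labelled TiO2-H male lowest and the array labelled TiO2-H female highest. The next probe (A_55_P1975903) read 0.195, 0.207, 0.232 and 0.231, so that both TiO2-H arrays were above both Sham arrays, by log2 0.25 and 0.16. The third probe (A_55_P2008874) read 0.112, 0.101, 0.127 and 0.105 and its groups overlapped. Across the 3 probes the log2 fold change ranged over 0.34 in the male and 0.14 in the female label.

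*Tet1*, which starts removal of the methyl mark by oxidising it, had the highest difference, TiO2-H minus Sham, among the brightest probes of the 9 genes, although it passed no threshold. Its brightest probe (A_55_P2122997) read 2.36 (Sham male), 2.49 (Sham female), 2.95 (labelled TiO2-H male) and 2.71 (labelled TiO2-H female). The groups did not overlap, and the levels were 1.25-fold and 1.09-fold those of the Sham array of the same label (log2 0.32 and 0.12). With the Sham arrays exchanged the log2 values were 0.24 and 0.20. The other probe of the same accession read 0.643, 0.677, 0.729 and 0.687, in the same order of arrays and with smaller differences (0.18 and 0.02).

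*Tet2* went the other way with both of its probes. The brightest read 2.29, 2.60, 2.19 and 2.37, a log2 fold change of -0.06 and -0.13 with overlapping groups. The other (A_55_P2051405) read 0.603, 0.655, 0.561 and 0.582, with both TiO2-H arrays below both Sham arrays (-0.10 and -0.17). With the brightest probe the difference between the Sham arrays, 0.18, was larger than either of its exposure differences.

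*Tet3* had 3 probes of accession NM_183138. The brightest read 0.467, 0.473, 0.513 and 0.485, both TiO2-H arrays being above both Sham arrays (log2 0.14 and 0.04). The second read 0.141, 0.124, 0.148 and 0.131 and its groups overlapped. The dimmest (A_51_P199339) read 0.0541, 0.0789, 0.0758 and 0.0755, so that the Sham male array alone was low. Its log2 fold change was 0.49 in the male label and -0.06 in the female label, the largest spread between labels of any member, and -0.06 and 0.48 with the Sham arrays exchanged.

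The promoters of *Tet1* and *Tet2* are shown for their different CG content, their 250 bases before the start being written as for *Uhrf1* (GRCm38.p6, minus strand, 5′ to 3′ on that strand, CG in capitals). They lie at chr10:62887325-62887574 and chr3:133544391-133544640.
Tet1: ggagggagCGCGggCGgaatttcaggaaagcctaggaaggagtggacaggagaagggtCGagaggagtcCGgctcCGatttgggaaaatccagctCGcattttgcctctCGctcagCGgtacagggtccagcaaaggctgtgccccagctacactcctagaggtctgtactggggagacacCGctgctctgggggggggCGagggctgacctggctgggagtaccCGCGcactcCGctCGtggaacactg
Tet2: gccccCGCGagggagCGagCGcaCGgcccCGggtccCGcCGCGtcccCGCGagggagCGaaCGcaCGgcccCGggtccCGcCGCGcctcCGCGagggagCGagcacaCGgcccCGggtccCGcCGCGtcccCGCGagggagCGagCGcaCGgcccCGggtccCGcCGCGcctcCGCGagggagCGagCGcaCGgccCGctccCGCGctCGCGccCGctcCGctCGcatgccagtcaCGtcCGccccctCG
The *Tet1* window held 15 CG and the *Tet2* window 51, and 27.3% and 0.067% of all windows held as many. Of the 13 starts listed for 8 of the 9 genes (*Mbd2* had no entry), 12 held more CG than the median window and 8 more than the upper quartile. The letters GGGCGG, searched on both strands, were in 10 of the 13 windows and in 32.7% of all windows. A match is a description of the letters and not of a bound site.

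*Tdg*, the glycosylase that removes oxidised methylcytosine, had the lowest difference, TiO2-H minus Sham, among the brightest probes. That probe (A_55_P2044091) read 1.31, 1.27, 1.14 and 1.12, with both TiO2-H arrays below both Sham arrays, by log2 -0.20 and -0.19. The other *Tdg* probes, of the same accession NM_172552, had no common direction. The second (A_55_P2121364) read 1.01, 0.862, 0.890 and 0.894, between the Sham arrays on both TiO2-H arrays. The dimmest (A_66_P116265) read 0.114, 0.141, 0.129 and 0.111, a log2 fold change of 0.17 in the male and -0.35 in the female label. Across its 3 probes the range of log2 fold changes was 0.37 in the male and 0.40 in the female label.

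*Mbd2*, the reader, differed little. Its probes read 1.65, 1.68, 1.55 and 1.63 and 0.614, 0.627, 0.611 and 0.608. Both had the TiO2-H arrays below the Sham arrays, by log2 -0.10 and -0.04 for the brightest and -0.01 and -0.04 for the other.

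**Figure D2:**
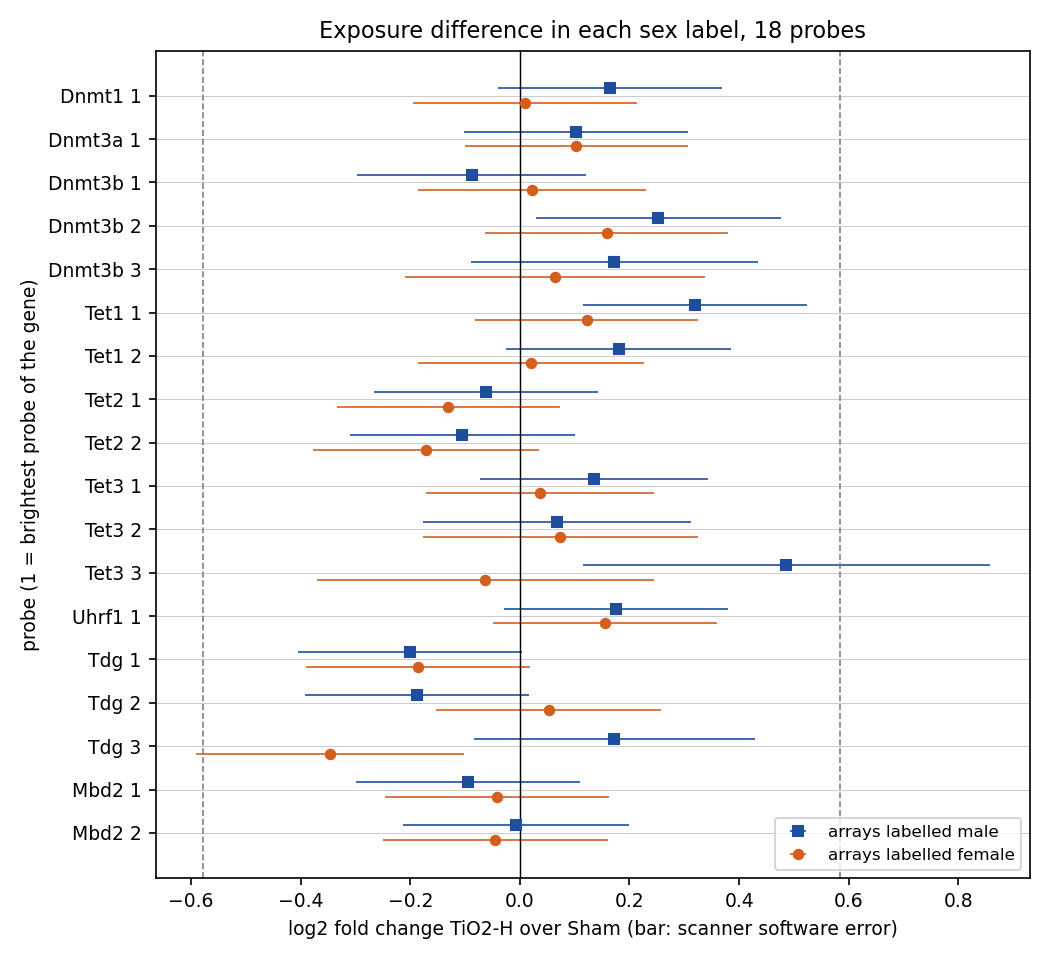
Log2 fold change of TiO2-H over Sham (horizontal axis) for the 18 probes well above background on all arrays, squares for the arrays labelled male and circles for those labelled female, with bars for the scanner software's error of the ratio. Dashed lines mark 1.5-fold and 0.67-fold, and no point reaches either, the extremes being 0.49 (*Tet3*) and -0.35 (*Tdg*).

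Across the probes the direction was mixed. Of 19, 9 were higher with TiO2-H in both sex labels, as were 35.8% of the 31763 probes compared in both, 6 were lower in both (31% of those probes; 5 without the dim *Uhrf1* probe) and 4 went opposite ways. Both TiO2-H arrays were above both Sham arrays for 7 probes (36.8% of the 19, against 26.3% of 35625 probes) and below them for 5 (26.3%, against 26.9%), or 4 of 18 without the dim *Uhrf1* probe (25.8% of the 29406 probes well above background on all arrays). By the brightest probe, *Dnmt1*, *Dnmt3a*, *Uhrf1*, *Tet1* and *Tet3* were above, *Tdg* and *Mbd2* below, and *Dnmt3b* and *Tet2* overlapped. Without scaling between arrays, 12 of the 19 were above, as were 53.1% of all probes. Markers of the cell types of the brain differed between exposures too, in both directions. The summed levels given for them mostly follow the brightest genes of a list, since levels do not compare genes. Among the progenitors this is *Fabp7* (91.9 and 82.7 on the Sham, 97.6 and 99.5 on the TiO2-H arrays), among the choroid plexus genes *Ttr*, and among the neurons *Stmn2* and *Tubb3*. With the brightest probe, both TiO2-H arrays were above both Sham arrays for 4 of 4 genes of microglia (summed level 11.5 to 11.8 on the Sham and 12.8 to 12.9 on the TiO2-H arrays) and for 2 of 3 of endothelium (7.20 to 7.53 and 8.36 to 8.39), with none below. Progenitors and radial glia had 4 of 6 above and 1, *Pax6*, below (128 to 138 and 144 to 147), neurons 4 of 7 above and 1, *Tubb3*, below (366 to 367 and 366 to 378), and the oligodendrocyte lineage 2 of 4 above and none below (12.1 to 12.3 and 12.8 to 13.4). Astrocytes had 1 of 4 above and 2 below (30.5 to 31.8 and 30.1 on both), and choroid plexus 0 of 3 above and 1 below (82.5 to 84.8 and 80.0 to 81.2). Other probes of a marker did not always go the same way. A dimmer *Csf1r* probe had both TiO2-H arrays below both Sham arrays (1.49 and 1.44 against 1.42 and 1.41). The remaining *Csf1r* probe and the dimmer *Cx3cr1* probe overlapped. For astrocytes, the dimmest *Gfap* probe and the dimmer *Aqp4* probe had both TiO2-H arrays above, and the remaining *Gfap* probe overlapped. For neurons, the dimmest *Rbfox3* probe had both TiO2-H arrays below (2.05 and 1.90 against 1.73 and 1.73). The other dimmer *Rbfox3* probe overlapped, and the dimmer *Map2* and *Dcx* probes were above. The dimmer probes of *Mbp*, *Pax6* and *Folr1* overlapped. The dimmest *Mbp* probe read 0.151, 0.419, 0.154 and 0.203, so that the Sham female array stood apart. Every marker of these lists was above background on the 4 arrays, and their part in the member values was not tested.

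Both TiO2-H arrays were then compared with both Sham arrays by limma, with the labels of sex set aside. No member and no other probe had an adjusted p under 0.05 (0% of 35625), while 13.9% of all probes had an unadjusted p under 0.05. Of the 18 member probes well above background on all arrays, 3 did, as did 14.3% of the 29406 such probes. With 2 arrays against 2, the smallest two-sided p of an exact permutation test is 0.333. The median log2 difference was 0.08 over those 18 and 0.01 over all such probes. The brightest *Tet1* probe differed by 0.22 ± 0.07 (SE, n = 2 per exposure, limma adjusted p = 0.356, 95% confidence interval 0.01 to 0.43), with TiO2-H higher on both arrays, and 13.0% of all probes had a difference as high. The estimate for *Dnmt3b* by probe A_55_P1975903 was 0.21 ± 0.05 (limma adjusted p = 0.351), and for *Tdg* by its brightest probe -0.19 ± 0.05 (limma adjusted p = 0.351). For the bright *Uhrf1* probe it was 0.17 ± 0.05 (limma adjusted p = 0.359), for *Dnmt3a* 0.10 ± 0.04 (limma adjusted p = 0.388) and for *Dnmt1* 0.09 ± 0.06 (limma adjusted p = 0.518). The dim *Uhrf1* probe was lower by a bound of 2.85-fold (log2 -1.51). Its value under the label TiO2-H male was set at the limit, and that under the label TiO2-H female was its own dim signal. No test is given for this probe, since it was well above background on the Sham arrays alone. All other member probes had adjusted p-values between 0.423 and 0.811, and *Tet1* lay between 0.16 and 0.28 when any single array was left out.

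**Figure D3:**
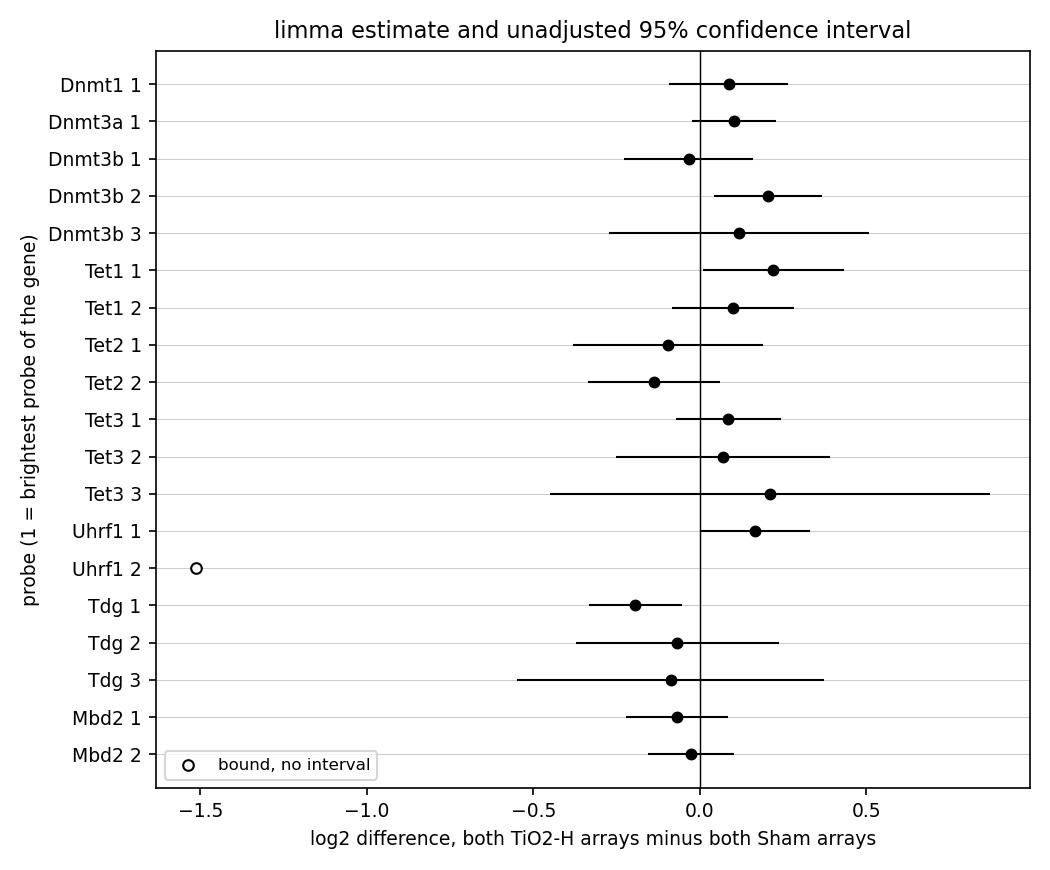
Log2 difference of both TiO2-H arrays minus both Sham arrays for each of the 19 probes (horizontal axis), with the unadjusted 95% confidence interval by limma, 2 arrays per exposure, for the 18 well above background on all arrays. The intervals of the brightest *Tet1* and *Tdg* probes and the second *Dnmt3b* probe leave out 0, no adjusted p was under 0.05, and the open symbol at -1.51 is a bound for the dim *Uhrf1* probe.

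The other genes of the pathway, 49 in 5 lists, were measured for 47 with the brightest probe of each. Of these 13 had both TiO2-H arrays above both Sham arrays and 14 both below (27.7% and 29.8%, against 26.3% and 26.9% of all probes). The counts above and below in each list are parts of these 13 and 14, and the same shares of all probes apply to them. In the male label 1 of the 47 reached 1.5-fold and 1 was at or below 0.67-fold, where 4.08% and 3.29% of all probes were. In the female label 0 reached either, against 2.65% and 3.31% of all probes. Limma called 0 at an adjusted p under 0.05 and 5 had an unadjusted p under 0.05 (13.9% of all probes). The lists had been drawn up with earlier results of these data known.

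Among the methyl-CpG readers all 10 were measured, with 3 above, 1 below and a median log2 fold change of 0.02 and 0.05 in the male and female labels. The differences largest in size were those of *Mbd5* (0.29 and 0.06), *Zbtb4* (0.14 and 0.18) and *Zbtb38* (0.17 and 0.13). Their levels were 2.67, 3.02, 3.27 and 3.16 for *Mbd5*, 2.72, 2.61, 3.01 and 2.95 for *Zbtb4* and 0.563, 0.576, 0.634 and 0.631 for *Zbtb38*.

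Among the partners of the writers, 8 of 10 were measured, with 1 above and 4 below. *Dnmt3l*, a cofactor of the new-methylation enzymes that has no activity of its own, read 0.201 on the Sham male array and 0.0733, 0.0622 and 0.0556 on the others. Its log2 fold change of -1.69 in the male label thus came with a Sham male array that stood apart, and was -0.40 in the female label. *Trim28*, a co-repressor at imprinted genes and repeats, read 17.5, 16.8, 15.5 and 15.4 (log2 -0.17 and -0.13), and *Cdca7* read 2.31, 2.31, 2.04 and 2.16. *Dppa3* and *Cdca7l* stayed at background throughout.

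The repair and demethylation partners were all measured (12), 4 above and 4 below. *Gadd45a*, a stress-response gene linked to demethylation, read 0.298, 0.326, 0.358 and 0.405 (log2 0.26 and 0.31). *Neil1*, a repair glycosylase, read 0.113, 0.144, 0.106 and 0.119. *Lig3*, a ligase that seals the repaired strand, read 1.15, 1.32, 1.33 and 1.40 with its brightest probe (log2 0.20 and 0.08) and 0.257, 0.247, 0.247 and 0.230 with the other.

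For the supply of the methyl donor, 10 of 10 were measured, 2 above and 4 below. *Ahcy*, which clears the product that inhibits methyltransferases, read 0.328, 0.309, 0.502 and 0.367 with its brightest probe (log2 0.62 and 0.25), and its other probe gave 0.07 and -0.36. *Shmt1*, a folate-cycle enzyme, was lower with both of its probes. They read 0.221, 0.200, 0.151 and 0.169 (log2 -0.55 and -0.24) and 0.176, 0.163, 0.130 and 0.119 (log2 -0.44 and -0.45). Its limma differences were -0.40 ± 0.10 and -0.44 ± 0.08, both with a limma adjusted p of 0.351. *Mat2b*, a subunit of the enzyme that makes the methyl donor, read 7.57, 7.74, 6.77 and 6.81 (log2 -0.16 and -0.18).

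Among the cofactor genes and Tet partners all 7 were measured, 3 above and 1 below. *D2hgdh*, which removes a metabolite that inhibits Tet enzymes, read 0.341, 0.392, 0.432 and 0.488 (log2 0.34 and 0.32). *Ogt*, a sugar transferase that binds Tet proteins, read 1.74, 1.73, 1.55 and 1.65, and *Idh1*, which makes the Tet cosubstrate, read 2.93, 2.68, 2.97 and 3.04.

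**Figure D4:**
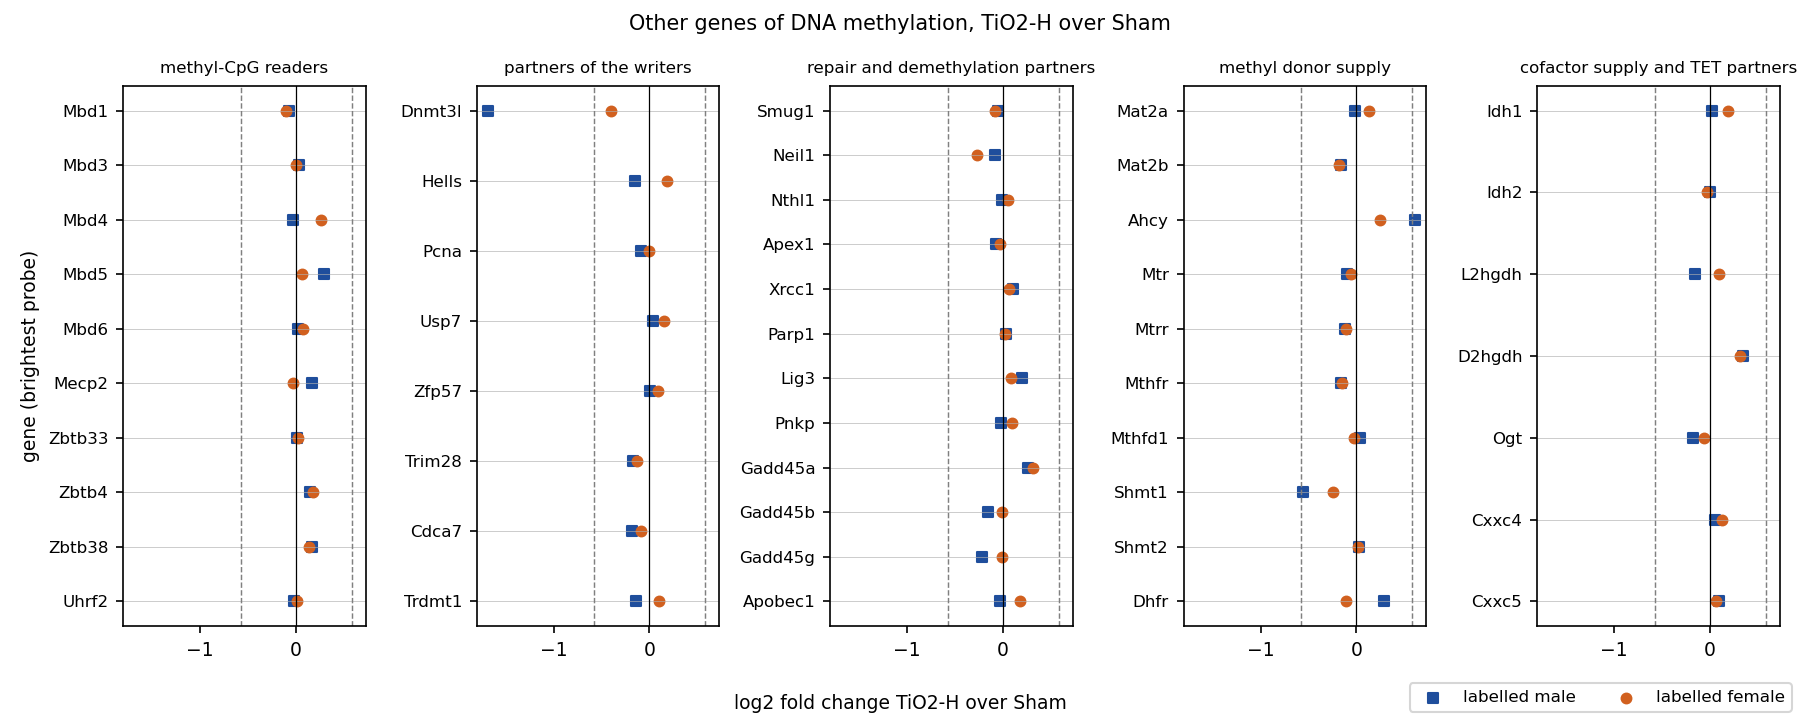
Log2 fold change of TiO2-H over Sham (horizontal axis) by the brightest probe of each of 47 other genes of DNA methylation, in 5 panels by list, squares for the arrays labelled male and circles for those labelled female. Dashed lines mark 1.5-fold and 0.67-fold, which only *Dnmt3l* (-1.69) and *Ahcy* (0.62) pass, both in the male label.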

How the data were processed

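The mRNA of 4 pools was measured on 1 array each. The authors deposited scanner output and a table of processed values, both as intensity. Agilent Feature Extraction (named in the submitters' processing notes, version 10.10.1.1 per the file headers) had subtracted local background and removed spatial trends. The deposited table held the same values as the scanner files for all spots, with no scaling or centring between arrays, and its column medians ran from 52.8 to 61.2. Samples were grouped by their titles.

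The log2 processed signal minus the log2 75th percentile of the array was used. Outlier spots were left out, spots of a probe averaged and probes named through accessions in a RefSeq table of GRCm38.p6. The arrays' own annotation is on mm9, so probe positions are not given. Probes were compared where well above background on at least 1 array, with dim values at the higher of their own signal and the lowest signal well above background. Thresholds were 1.5-fold and 0.67-fold. Both exposures were tested with limma 3.58.1 (R 4.3.3, Benjamini-Hochberg, adjusted p under 0.05) over all 35625 probes. The number of arrays limits the precision, and p-values measure the spread between these pools only. Limma and the fold thresholds were tried on simulated data with changes larger than those of the member probes well above background on all arrays. Every simulated probe counted as well above background. Differences as small as those of the members and the rule on dim values were therefore not tested. Python 3.11.15 with pandas 2.3.3 and numpy 2.4.6 did the remaining steps.

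Every member was named with all its probes. From each list of other genes the 3 with the largest mean difference were named, with those past a threshold and those never above background. One gene of the list of repair partners is not reported here. Members and lists were chosen with earlier results of these data known. Alternatives were no scaling, quantile normalization, normexp (offset 50) on median signals, other filters and floors, outlier spots kept, the deposited table, 2-fold and 0.5-fold thresholds, the mean of a gene's probes, exchanged Sham arrays, sex terms and a trended prior in limma, and each array left out.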

Additional observations from a re-analysis of the deposited data

Results flagged for a closer look

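Of the 19 member probes, 4 differed in direction between the sex labels. The difference itself was not tested, since each label holds 1 array per exposure. The log2 fold change in the female minus the male label was 0.11 for the brightest *Dnmt3b* probe (0.02 and -0.09), -0.55 for the dimmest *Tet3* probe (-0.06 and 0.49), 0.24 for the second *Tdg* probe (0.05 and -0.19) and -0.52 for the dimmest *Tdg* probe (-0.35 and 0.17). On the Sham arrays alone the female minus male difference was 0.54 for that *Tet3* probe and -0.23 and 0.31 for those *Tdg* probes. With the Sham arrays exchanged, the dimmest *Tdg* probe was lower on both TiO2-H arrays (levels of 0.129 against 0.141 and 0.111 against 0.114). With the brightest probe, the named genes of the other lists had the same direction in both labels, while other probes of *Ahcy* (0.07 male and -0.36 female), *D2hgdh* (0.52 and -0.24, and 0.17 and -0.17, with dim values at their limits) and *Ogt* (-0.24 and 0.14) did not.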

How the results depend on the processing

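No member had an adjusted p under 0.05 by limma in any of the 13 alternative fits, and 0 probes on the whole array passed in each of them, with 2982 to 8307 at an unadjusted p under 0.05. Of 358 member fold changes recomputed within a sex label, 347 moved by less than the scanner error, and 11 by more. The sign changed in 22 of the 358. Most member fold changes were themselves smaller than that error, which for most member probes stayed close to 10% of the signal. The deposited table and the other filters and floors could not move a probe well above background on all arrays, so part of this agreement was fixed in advance. Without scaling the median of all probes was 0.11 in the male and 0.13 in the female label, the member probes above and below were 12 and 2, and the limma difference changed sign to 0.082 (*Dnmt3b*, brightest), 0.018 (*Tet2*, brightest), 0.047 and 0.028 (*Tdg*, second and dimmest) and 0.046 and 0.088 (*Mbd2*). With normexp it became -0.13 for the dimmest *Tet3* and 0.073 for the second *Tdg* probe. When 1 array was left out, the difference ranged across 0 for the brightest (-0.095 to 0.029) and dimmest (-0.015 to 0.25) *Dnmt3b*, second (-0.019 to 0.16) and dimmest (-0.060 to 0.48) *Tet3*, and second (-0.18 to 0.050) and dimmest (-0.24 to 0.066) *Tdg* probes, and the member probes above ranged from 8 to 10 and below from 6 to 8, fewer arrays being easier to separate. Probes called on the whole array, 2455 (male) and 2030 (female), became 1401 and 1061 with normexp, 972 and 845 where both arrays were well above background (0 members), 1177 and 1065 at 2-fold and 0.5-fold, and 3047 without a floor in the female label. The cause of these changes was not tested. The counts above and below and their alternatives were chosen after seeing the data. No replicate block could be fitted, since each group held 1 array, but with the sex label as a term in limma 0 probes passed and 3200 had an unadjusted p under 0.05 (3097 with the label crossed within TiO2-H). Signal over background limits the dim *Uhrf1* probe to a bound.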
